A study of Homo sapiens with 8 samples.

Results

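The 10 genes described here are YAP1 and WWTR1, the transcription factor genes TEAD1 and TEAD4, and 6 genes that YAP1 and TEAD factors are known to drive, namely CCN1, CCN2, ANKRD1, AMOTL2, LATS2 and AXL. They were chosen by name, as the genes whose symbol in the deposited count tables equals one of these, and all 10 were found among 28265 genes. The choice was made with earlier results of these data known, so counts set beside the share of all genes are descriptive. Nascent RNA was profiled by factory RNA-Seq, which sequences the RNA still held in the isolated transcription sites of the nucleus, in IMR90, a fibroblast line from human lung. The control libraries, which the labels call young, come from proliferating cells, and the treated ones from cells that had 10 µM inflachromene (ICM), a small molecule that binds the chromatin proteins HMGB1 and HMGB2, for 3 or for 6 days. Another condition carries only the name MetaICM, which neither the labels nor the study's text explains. Each condition has 2 libraries. No genetic change is named for any group, all 8 libraries come from 1 cell line, and nothing in the labels says that libraries of a condition came from separate cultures, so that p-values measure the spread between these libraries only.

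YAP1 and its relative TAZ, the product of WWTR1, are coactivators that do not bind DNA themselves and reach their target genes through the TEAD factors. The Hippo kinases LATS1 and LATS2 phosphorylate both coactivators and keep them out of the nucleus, whereas cell spreading, a stiff substrate and serum favour their nuclear entry. In fibroblasts the pathway is known for its link to matrix stiffness, and CCN1, CCN2 and ANKRD1 are the transcripts most often measured as its output. LATS2 and AMOTL2 are targets that restrain YAP1 in turn.

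The libraries held from 12095123 to 23166405 read pairs counted on exons. Such counts can hold mature RNA beside nascent RNA, so a changed level is not by itself a change in transcription. Levels are given as CPM, the counts relative to the library total, scaled to the libraries' composition, and per kilobase of exon where genes are compared with each other. Fold changes are on the log2 scale (log2FC). A gene is written as upregulated or downregulated where the quasi-likelihood test of edgeR gave an adjusted p under 0.05 and the absolute log2FC was over 0.6. The summed level of 10 fibroblast markers was 70571 to 77762 CPM in control, 34933 to 35812 CPM after 3 days, 25969 to 26164 CPM after 6 days and 49768 to 53486 CPM in MetaICM, and none of the 10 was at 0 in any library. FN1 alone made up 35305 CPM of the sum in control. Of the 10 markers, 8 were downregulated after 3 days and 7 after 6 days, against 13.2% and 17.2% of all genes tested. In MetaICM 1 was downregulated and 1 upregulated, near the shares of all genes (8.99% and 7.41%), at a median log2FC of −0.09. Epithelial markers summed to at most 2.16 CPM, endothelial markers to at most 6.77 CPM and immune markers to at most 1.77 CPM. Of 4 smooth muscle markers (MYH11, CNN1, ACTG2 and DES), all 4 were downregulated after both 3 and 6 days, with a summed level of 574 to 621 CPM in control, 85.7 to 98.5 CPM under ICM and 423 to 462 CPM in MetaICM. Their part in the results given here was not tested.

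**Figure D1:**
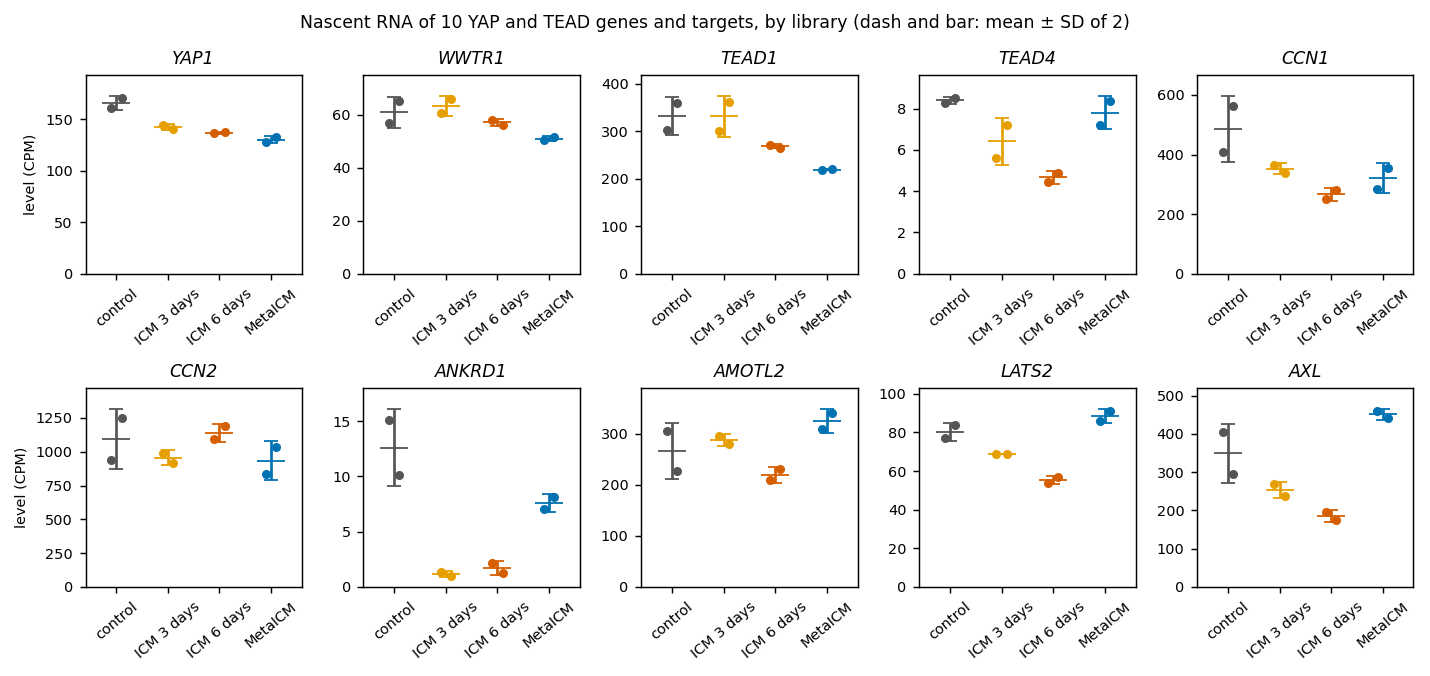
Level in CPM (y axes, from 0, each gene on its own scale) of the 10 genes in the 4 conditions (x axes). Points are the 2 libraries of a condition, dashes and bars their mean ± SD. ANKRD1 drops from 12.6 CPM in control to 1.14 CPM after 3 days of ICM, while CCN2 stays between 918 and 1251 CPM in all control and ICM libraries.

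Per kilobase of exon, CCN2 was the most abundant of the 10 in control cells, at 468 ± 94.4 CPM per kb (SD, n = 2 libraries), and CCN1 the next, at 213 ± 48.9. Both encode secreted matricellular proteins that bind integrins and growth factors. AXL, a receptor tyrosine kinase, lay at 71.5 ± 15.9 CPM per kb, and AMOTL2, an angiomotin scaffold protein, at 51.3 ± 10.5. TEAD1 was at 35.2 ± 4.22 and TEAD4 at 4.88 ± 0.108 CPM per kb, the lowest level of the 10. YAP1 stood at 29.0 ± 1.19, above WWTR1 at 10.8 ± 1.05. The kinase gene LATS2 was at 14.5 ± 0.857 and ANKRD1, which encodes a nuclear ankyrin repeat protein of muscle and stretched cells, at 6.37 ± 1.77 CPM per kb. The range spanned the transcripts of secreted proteins at the top and those of a transcription factor at the bottom. No exon base of the 10 genes is shared with another gene.

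Promoter sequence from RefSeq (assembly GRCh38.p14) was at hand for 7 of the 10 genes. The promoters of CCN1, TEAD1 and TEAD4 were not searched. A TEAD motif, GGAATG on either strand, was searched in the 250 bases before each transcript start, together with the AP-1 motif TGANTCA and the CArG box of serum response factor. At least 1 TEAD motif is present in 11.9% and 2 or more in 0.94% of 35116 such windows of the genome, the AP-1 motif in 6.57% and the CArG box in 1.16%. CCN2 has 3 TEAD motifs, from base −169 to −164, −104 to −99 and −95 to −90 relative to the start, and ANKRD1 has 2, from −220 to −215 and −128 to −123, with an AP-1 motif between them from −195 to −189. ANKRD1 was the member whose level was most reduced under ICM, and CCN2, like WWTR1 and AMOTL2, passed no test against control. Among the 7 genes searched, theirs are the 2 promoters with the most TEAD motifs. They are shown with the 2 windows of AXL and AMOTL2 that hold a TEAD motif on the opposite strand, in capitals the motifs, 5′ to 3′ along the transcribed strand up to the base before the start:
CCN2 (GRCh38 chr6:131951373-131951622, minus strand): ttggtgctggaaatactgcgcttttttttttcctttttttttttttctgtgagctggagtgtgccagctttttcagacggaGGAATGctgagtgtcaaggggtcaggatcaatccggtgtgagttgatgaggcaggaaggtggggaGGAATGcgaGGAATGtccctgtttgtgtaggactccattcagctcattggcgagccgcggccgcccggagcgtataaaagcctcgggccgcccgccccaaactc
ANKRD1 (GRCh38 chr10:90921088-90921337, minus strand): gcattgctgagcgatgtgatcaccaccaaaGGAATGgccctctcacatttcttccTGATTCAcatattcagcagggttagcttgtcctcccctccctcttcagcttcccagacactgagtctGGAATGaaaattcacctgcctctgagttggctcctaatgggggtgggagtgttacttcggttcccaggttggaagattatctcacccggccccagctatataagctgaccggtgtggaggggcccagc
AXL, the later of its starts (GRCh38 chr19:41226505-41226754, plus strand): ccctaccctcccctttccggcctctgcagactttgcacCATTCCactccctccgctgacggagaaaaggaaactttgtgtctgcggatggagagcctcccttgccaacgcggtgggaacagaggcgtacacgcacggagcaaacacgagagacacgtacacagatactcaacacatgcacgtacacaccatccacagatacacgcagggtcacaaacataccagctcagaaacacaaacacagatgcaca
AMOTL2, the later of its starts (GRCh38 chr3:134374448-134374697, minus strand): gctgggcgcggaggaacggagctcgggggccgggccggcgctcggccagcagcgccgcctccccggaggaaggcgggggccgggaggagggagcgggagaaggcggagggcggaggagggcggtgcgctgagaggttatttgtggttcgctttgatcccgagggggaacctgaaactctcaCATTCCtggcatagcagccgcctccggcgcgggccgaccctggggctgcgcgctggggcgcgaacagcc

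YAP1 has 1 TEAD motif, from −162 to −157. No TEAD motif was found in the windows of LATS2 and WWTR1 nor before the earlier starts of AXL and AMOTL2. No window of the 7 genes holds a CArG box, and no window other than that of ANKRD1 holds an AP-1 motif. A match describes these letters in this window and not a bound site.

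**Figure D2:**
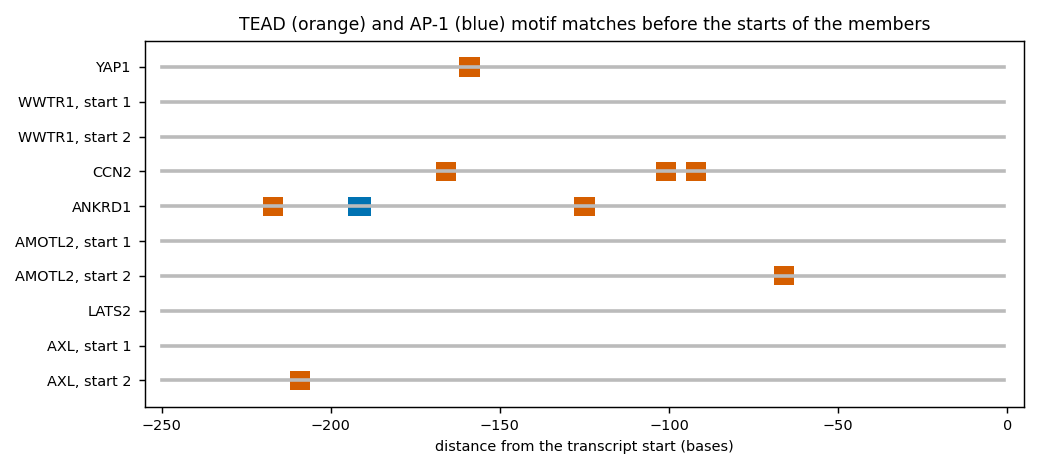
TEAD motif (orange) and AP-1 motif (blue) matches in the 250 bases before the transcript starts of 7 of the 10 genes. The x axis is the distance from the start in bases and each row is 1 start. CCN2 carries 3 TEAD matches, ANKRD1 carries 2 and an AP-1 match, and 5 of the 10 rows carry none.

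The first comparison sets 3 days of ICM against control. Of the 10 genes, only ANKRD1 was downregulated, about 10.8-fold, and none was upregulated, against 13.2% of all 15692 tested genes downregulated and 8.85% upregulated. No gene of the 10 was higher at an unadjusted p under 0.05, and DESeq2 called none higher either. CCN1 and AXL were also lower at an adjusted p under 0.05, but fell short of the fold cutoff. Neither adjusted p held under all settings, as given with each gene. In both, as in ANKRD1, YAP1, TEAD4 and LATS2, every 3-day library lay below every control library. The share of all genes separated in this way was not taken, here or for the separations given with each gene. The median log2FC was −0.23 for the 10 genes and 0.01 for all genes tested. The 2 secreted targets lay much closer to 0 than ANKRD1, with log2FC values of −0.47 for CCN1 and −0.20 for CCN2.

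After 6 days, 4 of the 10 genes were downregulated relative to control, namely ANKRD1, AXL, CCN1 and TEAD4, against 17.2% of all 15950 genes tested. None was upregulated, against 13.3% of all genes, with no gene of the 10 higher at an unadjusted p under 0.05 and none called higher by DESeq2. The median log2FC of the 10 was −0.42, against 0.00 over all genes. LATS2 passed the adjusted p but not the fold cutoff. YAP1, WWTR1, TEAD1, CCN2 and AMOTL2 did not reach an adjusted p under 0.05.

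In a direct comparison of 6 with 3 days, no gene of the 10 was called in either direction by edgeR or DESeq2, against 3.53% of 15845 genes upregulated and 4.54% downregulated. At an adjusted p under 0.05 with any fold, 5 of the 10 were lower after 6 days (TEAD1, CCN1, AMOTL2, LATS2 and AXL), against 9.66% of all genes tested, and none was higher. With all 8 libraries in 1 fit, the adjusted p was 0.0863 for TEAD1, 0.0734 for CCN1 and 0.0522 for AMOTL2, and of the 5, only AXL kept an adjusted p under 0.05 with each library left out in turn. At an unadjusted p under 0.05, 6 were lower and 1 higher. The median log2FC of the 10 between the time points was −0.31, against −0.01 over all genes, and ANKRD1 and CCN2 were the only members with a value above 0.

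In MetaICM, CCN1 and ANKRD1 were downregulated relative to control, 2 of 10 against 8.99% of 15904 genes, and none was upregulated, against 7.41%. AXL was higher at an unadjusted p under 0.05, the only one of the 10, and DESeq2 called none higher. DESeq2 called a further gene, TEAD1, lower. The median log2FC of the 10 was −0.25, against 0.00 over all genes. Both downregulated calls rested on single libraries, and that of CCN1 also on the processing, as given with each gene.

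Relative to 3 days of ICM, ANKRD1 and AXL were upregulated in MetaICM, 2 of 10 against 13.1% of 16209 genes. None was downregulated by edgeR, against 10.3%, although 2 were lower at an unadjusted p under 0.05 and DESeq2 called 1 of them, TEAD1. Relative to 6 days, ANKRD1, AXL, TEAD4 and LATS2 were upregulated, 4 of 10 against 15.7% of 16036 genes. None was downregulated by edgeR or DESeq2, against 12% of all genes, with 3 lower at an unadjusted p under 0.05. The median log2FC of the 10 was 0.08 against 3 days and 0.42 against 6 days. These comparisons share the MetaICM libraries, as the comparisons with control share the control libraries.

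**Figure D3:**
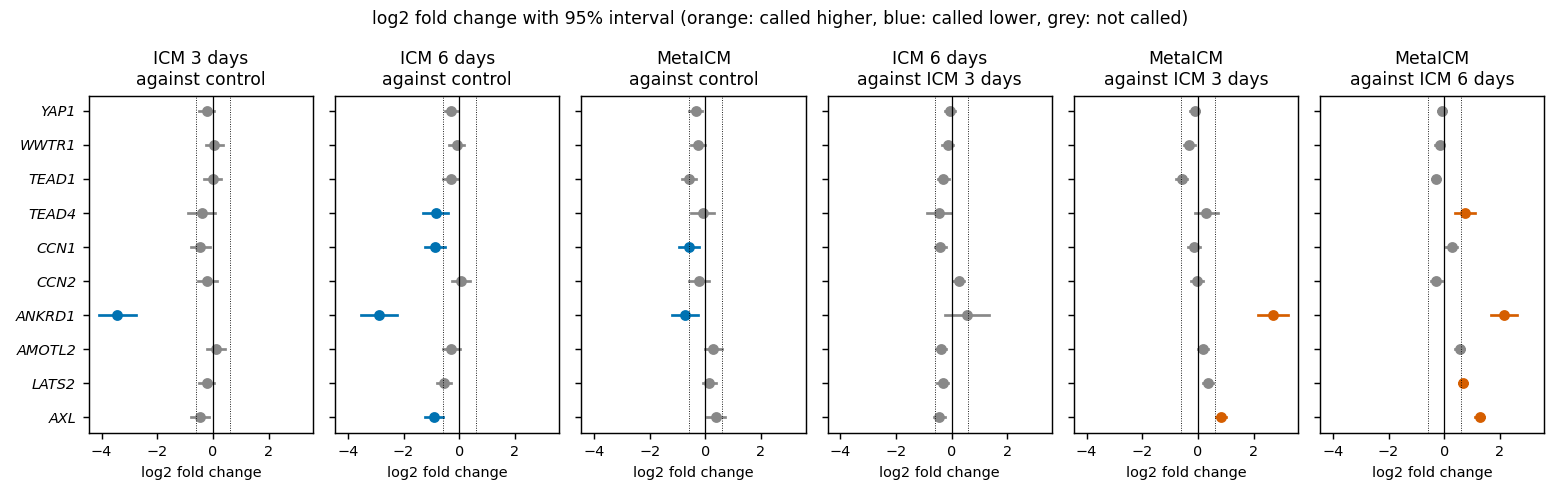
log2FC of the 10 genes (x axes, with the 95% interval) in the 6 comparisons, fitted on 4 libraries each. Orange points were called higher, blue points lower and grey points neither, and dotted lines mark the fold cutoff of 0.6. The ANKRD1 point lies farthest from 0 in all 6 panels, including that of 6 against 3 days, where it was not called.

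Of the coactivators, YAP1 (chromosome 11 of hg19, 101981178 to 102104155) had 161 and 171 CPM in control, 144 and 140 after 3 days, 136 and 137 after 6 days, and 128 and 133 in MetaICM. Its level was highest in control and lowest in MetaICM, and every treated library lay below both control libraries. No neighbours in this order differed at an adjusted p under 0.05. Against control, the log2FC was −0.23 after 3 days (standard error, SE, 0.12, adjusted p = 0.185), −0.28 after 6 days (adjusted p = 0.0551) and −0.35 in MetaICM (SE 0.10, adjusted p = 0.0320, but 0.380 and 0.302 without either MetaICM library), within the fold cutoff. WWTR1 (chromosome 3, 149235016 to 149442575) had 56.8 and 65.1 CPM in control, 60.5 and 66.0 after 3 days, 57.9 and 56.2 after 6 days, and 50.3 and 51.5 in MetaICM. The control libraries overlapped both ICM conditions in WWTR1, and the MetaICM libraries lay below all others. Its log2FC against control was 0.05 at 3 days (95% interval −0.25 to 0.35), −0.10 at 6 days (−0.37 to 0.18) and −0.26 in MetaICM (adjusted p = 0.125), and it was lower in MetaICM than after 3 days by a log2FC of −0.31 (adjusted p = 0.0141, but 0.151 and 0.0989 without either MetaICM library).

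The 2 TEAD genes had different orders of the conditions. TEAD1 (chromosome 11, 12695968 to 12966284) had 303 and 360 CPM in control, 301 and 362 after 3 days, 272 and 265 after 6 days, and 219 and 220 in MetaICM. Control and 3-day libraries covered the same range, the 6-day libraries lay below it and the MetaICM libraries were lowest. The log2FC was −0.31 for 6 against 3 days (SE 0.09, adjusted p = 0.0287, but 0.120 to 0.166 without 3-day replicate 2 or either 6-day library), −0.29 for MetaICM against 6 days (adjusted p = 0.00147) and −0.60 for MetaICM against control (adjusted p = 0.00571). The last value fell just short of the cutoff of 0.6 and passed it without control replicate 1, at −0.71, and with DESeq2, while its adjusted p was 0.0791 and 0.0875 without either MetaICM library. Against 3 days, MetaICM was at −0.59 (adjusted p = 0.000163), and at −0.72, past the cutoff, without 3-day replicate 1.

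TEAD4 (chromosome 12, 3068563 to 3149842), which encodes a TEAD family member at a much lower level here, had 8.27 and 8.53 CPM in control, 5.61 and 7.22 after 3 days, 4.46 and 4.89 after 6 days, and 7.23 and 8.38 in MetaICM. The 6-day libraries were the lowest, and MetaICM overlapped control. TEAD4 was downregulated after 6 days by a log2FC of −0.85 (SE 0.20, adjusted p = 0.00627), and the adjusted p was 0.0729 without 6-day replicate 1. It was upregulated in MetaICM relative to 6 days by 0.74 (SE 0.17, adjusted p = 0.00102). Control against MetaICM (adjusted p = 0.692), MetaICM against 3 days (0.203) and 6 against 3 days (0.144) did not reach an adjusted p under 0.05. Without 3-day replicate 1, the difference between 6 and 3 days was called, at a log2FC of −0.62.

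ANKRD1 (chromosome 10, 92671857 to 92681032) had 15.1 and 10.1 CPM in control, 1.33 and 0.944 after 3 days, 2.15 and 1.28 after 6 days, and 7.03 and 8.17 in MetaICM. These levels rest on 253 and 122 read pairs in control, 29 and 14 after 3 days, 40 and 24 after 6 days, and 142 and 188 in MetaICM. No ICM library reached a MetaICM library, and no MetaICM library reached a control library. The log2FC against control was −3.43 at 3 days (SE 0.30, adjusted p = 4.65e-06) and −2.89 at 6 days (SE 0.29, adjusted p = 2.97e-05), with 0.55 for 6 against 3 days (95% interval −0.23 to 1.33, adjusted p = 0.334). With each library left out in turn, the 3-day value stayed between −3.75 and −3.11 and the 6-day value between −3.30 and −2.55. In MetaICM, ANKRD1 was 6.51-fold higher than after 3 days (log2FC 2.70, adjusted p = 7.44e-07) and 4.44-fold higher than after 6 days (2.15, adjusted p = 7.70e-08). The remaining gap to control was −0.74 (SE 0.21, adjusted p = 0.0257), and this call was lost without control replicate 1 (−0.41), MetaICM replicate 1 (−0.61, adjusted p = 0.184) or MetaICM replicate 2 (−0.83, adjusted p = 0.0857). The 4 smooth muscle markers were lower in the same ICM libraries, at a median log2FC of −2.44 at either time, and their part in the ANKRD1 result was not tested. In these bulk libraries, fewer cells that transcribe a gene and less RNA per cell cannot be told apart.

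CCN1 (chromosome 1, 86046444 to 86049632) had 407 and 564 CPM in control, 366 and 339 after 3 days, 250 and 282 after 6 days, and 285 and 356 in MetaICM. All 6 treated libraries were below the lower control library, with the 6-day libraries lowest. The log2FC against control was −0.47 after 3 days (SE 0.16, adjusted p = 0.0427), −0.87 after 6 days (SE 0.16, adjusted p = 0.00132) and −0.60 in MetaICM (SE 0.16, adjusted p = 0.0229). The control libraries stood apart in this gene. Without control replicate 1 the 3-day value was −0.68 and called, whereas its adjusted p was 0.177 without control replicate 2, 0.119 and 0.235 without either 3-day library and 0.0806 with library totals. The MetaICM call was lost without control replicate 2 (−0.34) or MetaICM replicate 1 (−0.43). It also fell within the fold cutoff with library totals (−0.582), at least 10 counts in every library (−0.598) or no filter on low counts (−0.570). The same held with all 8 libraries in 1 fit (−0.599) and with the replicate block (−0.593). After 6 days CCN1 was lower than after 3 days by −0.41 (adjusted p = 0.00331, but 0.114 without 6-day replicate 1), and MetaICM was above 6 days by 0.27 (adjusted p = 0.0164, but 0.109 without 6-day replicate 1, 0.428 without MetaICM replicate 2 and 0.254 with DESeq2), both within the fold cutoff. MetaICM and 3 days did not differ at an adjusted p under 0.05 (adjusted p = 0.310).

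CCN2 (chromosome 6, 132269317 to 132272512) behaved otherwise. It had 939 and 1251 CPM in control, 994 and 918 after 3 days, 1091 and 1188 after 6 days, and 832 and 1035 in MetaICM. The control libraries spanned the level of all 6-day libraries, and each condition overlapped control. The log2FC against control was −0.20 after 3 days (95% interval −0.54 to 0.14, adjusted p = 0.366), 0.05 after 6 days (−0.27 to 0.38, adjusted p = 0.793) and −0.23 in MetaICM (−0.60 to 0.13, adjusted p = 0.318). The 3-day interval of CCN2 holds the 3-day value of CCN1 (−0.47) and not that of ANKRD1 (−3.43). Between treated conditions, CCN2 was lower in MetaICM than after 6 days by −0.29 (adjusted p = 0.0124, but 0.0610 without 6-day replicate 2 and 0.255 without MetaICM replicate 1), within the fold cutoff, and 0.25 higher after 6 than after 3 days (adjusted p = 0.0558).

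AXL (chromosome 19, 41725128 to 41767672) had 404 and 294 CPM in control, 268 and 238 after 3 days, 196 and 175 after 6 days, and 461 and 441 in MetaICM. Its libraries formed a descending series from control to 6 days without overlap, and MetaICM lay above all of them. The log2FC against control was −0.47 after 3 days (SE 0.15, adjusted p = 0.0398), −0.91 after 6 days (SE 0.15, adjusted p = 0.000744) and 0.37 in MetaICM (SE 0.15, adjusted p = 0.0876). Without control replicate 2 the 3-day log2FC was −0.70 and called, whereas its adjusted p was 0.201 without control replicate 1, 0.0880 and 0.269 without either 3-day library and 0.0613 with library totals. Without control replicate 1 the MetaICM difference was 0.62 and called. Between 6 and 3 days AXL was lower by −0.45 (adjusted p = 0.00206). In MetaICM it was upregulated 1.79-fold relative to 3 days (log2FC 0.84, adjusted p = 2.67e-06) and 2.43-fold relative to 6 days (1.28, SE 0.08, adjusted p = 8.08e-12).

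The 2 targets that act back on the pathway were lowest after 6 days and highest in MetaICM. LATS2 (chromosome 13, 21547176 to 21635725) had 77.0 and 83.8 CPM in control, 68.8 and 68.9 after 3 days, 54.1 and 56.7 after 6 days, and 85.9 and 91.0 in MetaICM. No 2 conditions overlapped in this gene. Its log2FC against control was −0.54 after 6 days (SE 0.12, adjusted p = 0.00407) and −0.61, past the fold cutoff, without control replicate 1. The adjusted p did not hold without 6-day replicate 1 (log2FC −0.50) or replicate 2 (−0.57). Neighbouring 3 days (adjusted p = 0.207) and MetaICM (0.379) did not reach an adjusted p under 0.05 against control. LATS2 was 0.32 lower after 6 than after 3 days (log2FC −0.32, adjusted p = 0.0244, but 0.292 and 0.126 without either 6-day library) and was upregulated in MetaICM relative to 6 days (0.68, SE 0.08, adjusted p = 1.74e-07). Relative to 3 days the MetaICM value was 0.37 (adjusted p = 0.00307, but 0.0886 without MetaICM replicate 2).

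AMOTL2 (chromosome 3, 134074187 to 134094259) had 305 and 228 CPM in control, 296 and 280 after 3 days, 209 and 231 after 6 days, and 309 and 342 in MetaICM. The wide control pair overlapped both ICM conditions, and no comparison with control passed (adjusted p = 0.614, 0.138 and 0.160 for 3 days, 6 days and MetaICM). The 6-day libraries were below the 3-day libraries by a log2FC of −0.39 (SE 0.09, adjusted p = 0.00406, but 0.132 without 6-day replicate 1) and below MetaICM by 0.56 (SE 0.08, adjusted p = 2.95e-06). The latter passed the fold cutoff without 6-day replicate 2 (0.64) or MetaICM replicate 1 (0.65).

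The rest of the pathway was described with 52 genes in 4 lists. Of the 20 Hippo kinases and scaffolds, 3 were downregulated after 3 days and none upregulated, against 13.2% and 8.85% of all genes. After 6 days 3 were downregulated and 3 upregulated, against 17.2% and 13.3%, so the counts of downregulated genes were near the background at either time. None was higher by DESeq2 at 3 days, with 3 higher at an unadjusted p under 0.05. The downregulated genes were the same at both times, AMOT (log2FC −1.71 and −1.66), AMOTL1 (−0.87 and −1.15) and WWC1 (−1.20 and −1.71). AMOT and AMOTL1 are the other angiomotins, scaffolds that bind YAP1, and WWC1, or KIBRA, activates LATS kinases. AMOTL1 had 193 and 182 CPM in control, 99.3 and 107 after 3 days, 81.8 and 88.0 after 6 days, and 167 and 175 in MetaICM. The ICM libraries of AMOTL1 thus lay far below the others, unlike those of AMOTL2. In MetaICM all 3 were upregulated relative to 3 days (0.97, 0.74 and 1.48 for AMOT, AMOTL1 and WWC1) and to 6 days (0.91, 1.01 and 1.98), while AMOT remained below control (−0.75, lost without MetaICM replicate 1 at −0.59). The 3-day call of WWC1 was lost without 3-day replicate 1 (−0.93, adjusted p = 0.0609).

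The genes upregulated after 6 days were TAOK2 (0.72), SAV1 (0.64) and TAOK3 (0.63), upstream kinases and the scaffold of the MST kinases. SAV1 and TAOK3 were not called without 6-day replicate 1 (0.59 and 0.56). LATS1, the partner kinase of LATS2, was downregulated in MetaICM relative to control (−0.67, adjusted p = 0.00866), a call lost without control replicate 2 (−0.44) or either MetaICM replicate. Of its 8090 exon bases, 408 lie opposite another gene, and the counting did not use strand. The direct test of 6 against 3 days called none of the 20, against 3.53% of all genes upregulated and 4.54% downregulated. At an unadjusted p under 0.05, 4 were higher and 3 lower, and DESeq2 called none. The MetaICM comparisons with 3 and 6 days called no Hippo gene lower, against 10.3% and 12% of all genes. At an unadjusted p under 0.05, 4 and 7 were lower, and DESeq2 called none lower.

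Of 6 other TEAD and Vestigial-like genes, 4 passed the filter on low counts, as VGLL1 had no read pair in any library and VGLL2 at most 1. TEAD2 had 25.8 and 35.0 CPM in control, 25.3 and 26.2 after 3 days, 13.6 and 10.4 after 6 days, and 20.5 and 21.7 in MetaICM. The 6-day libraries of TEAD2 lay below all others, with a log2FC of −1.34 against control (adjusted p = 0.000339), −1.10 against 3 days (adjusted p = 1.42e-05) and 0.81 for MetaICM against 6 days (adjusted p = 1.04e-05). TEAD3 was downregulated after 6 days (−0.61) and upregulated in MetaICM relative to 6 days (0.64). The former call was lost without control replicate 1 (−0.52) or 6-day replicate 1 (−0.53), and the latter without 6-day replicate 1 (0.57). VGLL4, a cofactor that competes with YAP1 for TEAD binding, was downregulated after 6 days (−0.70, not called without 6-day replicate 1, adjusted p = 0.0603), although 1599 of its 4656 exon bases lie opposite ATG7. VGLL3 was downregulated after 3 days (−0.61), a call lost without control replicate 2 (−0.41) or either 3-day library. Of the 4, 1 was downregulated after 3 days and 3 after 6 days, against 13.2% and 17.2% of all genes. None of the 4 was upregulated after 3 or 6 days, near the background of 8.85% and 13.3% of all genes. None was higher at an unadjusted p under 0.05 and none by DESeq2.

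Of the other 16 genes in a signature of YAP and TAZ targets, all tested, 1 was upregulated and 2 downregulated after 3 days, 2 and 2 after 6 days, and 4 and 2 in MetaICM. The shares over all genes were 8.85% and 13.2%, 13.3% and 17.2%, and 7.41% and 8.99%, so that the counts at 3 and 6 days were near the background. F3, which encodes tissue factor, the starter of coagulation, was upregulated in each condition, with 877 and 916 CPM in control, 2040 and 1839 after 3 days, 1985 and 2011 after 6 days, and 1511 and 1608 in MetaICM. Its log2FC was 1.11 (adjusted p = 6.83e-05), 1.15 (adjusted p = 2.78e-05) and 0.80 (adjusted p = 0.00216). F3 therefore stood opposite to ANKRD1, CCN1 and AXL under ICM. IGFBP3, a carrier of insulin-like growth factors, had 172 and 145 CPM in control, 70.4 and 69.8 after 3 days, 163 and 162 after 6 days, and 98.9 and 115 in MetaICM. It was downregulated after 3 days (−1.18, adjusted p = 3.11e-05), and rose again by 1.21 between 3 and 6 days (adjusted p = 1.82e-08). PTPN14, a phosphatase that binds YAP1, was downregulated after 3 days (−0.73, adjusted p = 0.000827).

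NT5E, the ecto-enzyme CD73, was upregulated after 6 days (0.71, not called without control replicate 2, at 0.55) and in MetaICM (1.06, adjusted p = 0.000637). FOXF2, a transcription factor of mesenchyme at 2.45 to 10.9 CPM, was downregulated after 6 days (−1.09, lost without 6-day replicate 2) and higher in MetaICM than after 3 days (0.81) and 6 days (1.70). Its MetaICM value against control was 0.60, which DESeq2 did not call and which was lost without 3 of the 4 libraries. FJX1 (0.68) was upregulated and RBMS3 (−0.67) and ASAP1 (−0.61) were downregulated in MetaICM relative to control, and each of these calls was lost without at least 1 MetaICM library. ARHGEF17 was downregulated after 6 days (−0.62, lost without control replicate 1 or 6-day replicate 1), with 979 of its 8163 exon bases opposite another gene. Between 3 and 6 days CCDC80 rose by 0.75 and CRIM1 by 0.61, the latter lost without 3-day replicate 2 or 6-day replicate 1, and FOXF2 fell by 0.89, lost without 6-day replicate 2. Relative to 3 days, NT5E (0.94), FJX1 (0.81) and IGFBP3 (0.62, lost without MetaICM replicate 2) were upregulated and RBMS3 (−0.73, lost without 3-day replicate 2) was downregulated in MetaICM.

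Relatives and partners of the members completed the lists. GAS6, the secreted ligand of AXL, had 380 and 378 CPM in control, 225 and 218 after 3 days, 185 and 205 after 6 days, and 717 and 731 in MetaICM. Ligand and receptor transcripts had the same order of mean levels, MetaICM above control above 3 days above 6 days. For AXL the step from control to MetaICM was not called. The order was not particular to this pair. The member LATS2, the listed genes TYRO3, WWC1, WTIP, TEAD3 and FOXF2, and the fibroblast marker VIM had it too. The log2FC of GAS6 against control was −0.78 (adjusted p = 0.000444), −0.96 (adjusted p = 7.47e-05) and 0.93 (adjusted p = 0.000560), and MetaICM exceeded 3 days by 1.71 and 6 days by 1.89. Of its 2508 exon bases, 115 lie opposite GAS6-AS1. TYRO3, a receptor of the AXL family, had 20.0 and 18.0 CPM in control, 13.1 and 10.1 after 3 days, 9.73 and 9.36 after 6 days, and 23.5 and 26.1 in MetaICM, and was downregulated at both times (−0.71 and −0.999, the former lost without 3-day replicate 2 at −0.52) and upregulated in MetaICM relative to both (1.09 and 1.38). MERTK, the remaining receptor of that family, had 4.70 and 5.22 CPM in control and between 0.478 and 1.20 CPM in all 6 other libraries. These levels rest on few read pairs, 79 and 63 in control, 26 and 17 after 3 days, 16 and 9 after 6 days, and 15 and 15 in MetaICM. MERTK was downregulated in MetaICM too (−2.82, adjusted p = 0.000258), beside −2.07 after 3 and −2.88 after 6 days of ICM, whereas the MetaICM value of AXL was 0.37.

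Among the CCN genes, CCN4 had 35.3 and 53.6 CPM in control, 14.0 and 16.1 after 3 days, 6.98 and 8.72 after 6 days, and 38.2 and 44.0 in MetaICM. CCN4 fell by 1.57 after 3 days (adjusted p = 9.50e-05) and by 2.50 after 6 days (adjusted p = 9.77e-06) on the log2 scale, lay 0.93 lower after 6 than after 3 days (log2FC −0.93) and was upregulated in MetaICM relative to both (1.47 and 2.39). CCN3, at 1.82 to 7.73 CPM, was upregulated after 3 days (1.28, lost without 3-day replicate 1, adjusted p = 0.0895) and downregulated in MetaICM relative to 3 days (−1.35) and 6 days (−0.83, lost without MetaICM replicate 2). CCN5 stayed at or under 0.430 CPM in every library, and CCN6, with at most 17 read pairs per library, was not called after 6 days (−1.06, adjusted p = 0.143) or in MetaICM (−1.04, adjusted p = 0.171) and was not tested at 3 days. CCN4 was thus 5.65-fold lower after 6 days, when CCN2 had a log2FC of 0.05. Over the 4 lists together, 2 of 48 tested genes were upregulated and 10 downregulated after 3 days, 5 and 12 of 49 after 6 days, and 5 and 5 of 49 in MetaICM, to be read beside the shares of all genes given for the same comparisons.

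**Figure D4:**
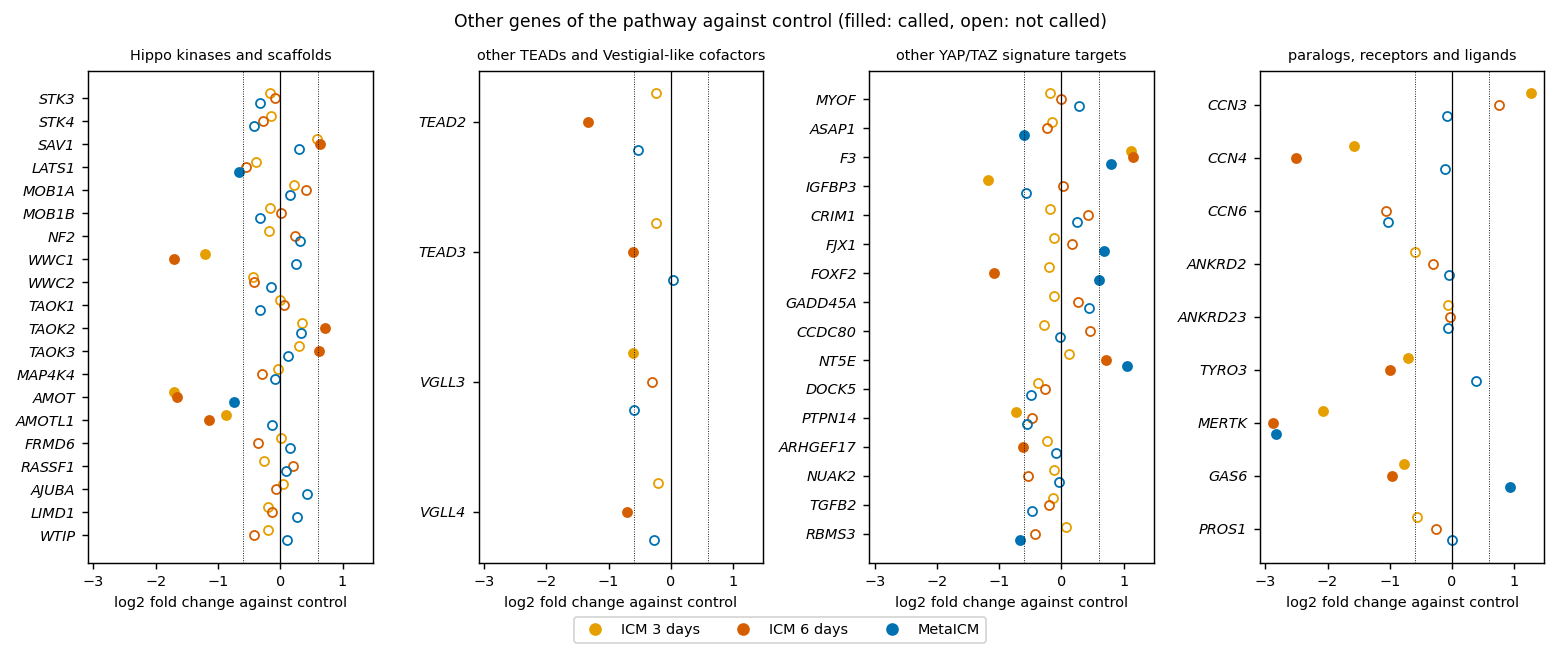
log2FC against control (x axes) of the tested genes of the 4 lists (rows) after 3 days of ICM, after 6 days and in MetaICM, in 1 colour each. Filled points were called and open points were not, and dotted lines mark the fold cutoff of 0.6. F3 lies to the right in all 3 conditions, and GAS6 lies to the left under ICM and to the right in MetaICM.

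The pattern of each of the 10 genes over the 8 libraries was also compared with that of 14109 genes, by the root-mean-square difference of log2 CPM centred on each gene's mean. The closest genes to ANKRD1 were CDKN2C, an inhibitor of cyclin-dependent kinases, at 0.264, and CDCA7 at 0.282, and the closest of the other 9 members was AXL at 1.13. ANKRD1 was thus farther from every other member than any of them was from its own closest one. The measure is not scaled to how much a gene varies. ANKRD1 varied most, with an SD of log2 CPM of 1.58 against 0.142 to 0.532 for the other 9. Its distance therefore does not show that its pattern had another shape. TEAD4 and LATS2 were each other's closest members, at 0.152, and YAP1 and WWTR1 likewise, at 0.116. Outside the members, AXL was closest to PRX (0.0770), LATS2 to APOL6 (0.0632) and DNAAF5 (0.0703), and TEAD4 to ACVR2B (0.103) and B4GALT5 (0.109). CCN1 was closest to DLK2 (0.0912) and AGO4 (0.104), CCN2 to ZBTB33 (0.0766) and SNX16 (0.0831), and AMOTL2 to R3HDM4 (0.0448) and ISYNA1 (0.0529). The genes closest to YAP1 were RANBP10 (0.0406) and CWC22 (0.0409), those closest to WWTR1 were VPS36 (0.0265) and SMAD4 (0.0380), and those closest to TEAD1 were DLG1 (0.0361) and TAB2 (0.0475). Small values are easily reached by genes that vary little, and these likenesses over 8 libraries are given as a description.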

How the data were processed

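Nascent RNA of 8 IMR90 libraries was measured by factory RNA-Seq, 2 each for control, ICM 3 days, ICM 6 days and MetaICM. The submitters' processing notes name STAR (version 2.6.0c), featureCounts, DESeq2 and deepTools. Per the file headers, the authors counted read pairs on the exons of RefSeq genes of hg19 with featureCounts (version 1.6.3), without using strand and leaving out chimeric pairs and those with an unmapped end, and deposited these counts per gene without normalization. The labels' extraction text, shared by all samples, describes poly(A) selection of total RNA rather than the isolation of transcription sites. The study's own nascent values rest on intronic counts, which were not analysed here. Exonic counts can hold mature RNA beside nascent RNA.

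Conditions were compared in pairs (4 libraries per fit) with edgeR (version 4.0.16, R 4.3.3), using TMM factors and filterByExpr (count minimum 10). Its quasi-likelihood test was used, and p-values were adjusted over all genes tested by the Benjamini-Hochberg method. Calls needed an adjusted p under 0.05 and an absolute log2FC over 0.6. Levels are CPM with TMM factors of all 8 libraries. The precision rests on 12095123 to 23166405 counted pairs per library. On simulated data with changed genes added, the fits were tested before use. Alternatives were DESeq2 (version 1.42.0), its size factors (RLE), upper-quartile factors, library totals, other filters on low counts, all 8 libraries in 1 fit, a replicate block, other thresholds and each library left out in turn. Leaving a library out leaves 1 in its condition, which is then assumed to vary like the others.

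The members and the lists were chosen with earlier results of these data known. The text names all members, up to 4 called genes with the largest log2FC per list, comparison and direction, and the 2 genes most like each member, except for 1 result that is not reported here. Promoter windows come from RefSeq (GRCh38.p14), while gene positions are those of hg19. Tables and figures were made with Python 3.11.15, pandas 2.3.3 and matplotlib 3.10.9.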

Additional observations from a re-analysis of the deposited data

Results flagged for a closer look

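For 5 genes the effect of ICM differed between the time points by the direct test of 6 against 3 days at an adjusted p under 0.05 (edgeR, n = 2 libraries per time), each within the fold cutoff of 0.6. The log2FC between the times was −0.31 for TEAD1, −0.41 for CCN1, −0.39 for AMOTL2, −0.32 for LATS2 and −0.45 for AXL. With all 8 libraries in 1 fit the adjusted p was 0.0863 for TEAD1, 0.0734 for CCN1 and 0.0522 for AMOTL2. It was also above 0.05 without 6-day replicate 1 for TEAD1 (0.120), CCN1 (0.114), AMOTL2 (0.132) and LATS2 (0.292), without 6-day replicate 2 for TEAD1 (0.152) and LATS2 (0.126), and without 3-day replicate 2 for TEAD1 (0.166). Each of the 5 was lower in both 6-day libraries than in both 3-day libraries. As they were picked by this same comparison, that separation adds no support. With each library left out in turn, TEAD1 was at −0.43 without 3-day replicate 1 and at −0.18 without its replicate 2, and the other 4 stayed between −0.54 and −0.27.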

How the results depend on the processing

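Each condition had 2 libraries, and those of control lay farthest apart. Whether this limited the comparisons with control was not tested. The median absolute log2 difference between replicates over 14109 genes was 0.213 in control and 0.105 to 0.159 elsewhere. Of the log2FC values of the 10 genes under other settings, 737 kept their direction and their side of the threshold, 16 passed it newly, 13 no longer passed it and 14 changed sign. The members called in MetaICM against control fell from 2 to 1 with library totals, with at least 10 counts in every library, with no filter on low counts, with all 8 libraries in 1 fit or with the replicate block, and to 0 at an adjusted p under 0.01. Without a fold cutoff, the members called were 3 at 3 days, 4 in MetaICM against control, 5 in 6 against 3 days, 5 in MetaICM against 3 days and 8 in MetaICM against 6 days, and the pathway genes 27 at 6 days, 22 in MetaICM against control, 20 in 6 against 3 days, 31 in MetaICM against 3 days and 37 in MetaICM against 6 days. The share of all genes without a fold cutoff was taken only for those lower in 6 against 3 days, at 9.66%. The other counts have no such share beside them and cannot be set against the background. With each library left out in turn, members called ranged from 1 to 2 at 3 days, from 0 (without MetaICM replicate 1) to 3 (without control replicate 1) in MetaICM against control and from 0 to 1 in 6 against 3 days, and pathway genes from 6 (without MetaICM replicate 1) to 14 (without control replicate 1) in MetaICM against control. The causes were not tested.

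All 14 changes of sign concerned values that passed no test. TEAD1 at 3 days was at 0.069 with library totals and 0.0011 with no filter on low counts. The other 12 came with a library left out, over which the log2FC ranged as follows. Against control at 3 days, WWTR1 ranged from −0.044 to 0.13 with a control library left out, TEAD1 from −0.12 to 0.11, with a 3-day library left out, CCN2 from −0.39 to 0.0053 and AMOTL2 from −0.10 to 0.34, with a control library left out. At 6 days, WWTR1 ranged from −0.20 to 0.0085 and CCN2 from −0.14 to 0.28, with a control library left out. With a MetaICM library left out, TEAD4 ranged from −0.20 to 0.021 against control, and against 3 days CCN1 from −0.31 to 0.022 and CCN2 from −0.20 to 0.12.

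The labels number the replicates 1 and 2 in every condition. Over 14109 genes, deviations of same-numbered libraries correlated at 0.26 for 3 days with control and between −0.17 and 0.14 in the other pairs of conditions, so these values do not show that the numbers pair the libraries, and the labels do not say that they do. With the replicate block, CCN1 in MetaICM against control was −0.59 and lost its call, and the other member counts kept within 1.5 times their value.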
